A study of Rattus norvegicus with 12 samples.

Results

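NRF2 targets and antioxidant enzymes were followed as a set of 35 named genes across rat aortic smooth muscle cells with or without an intact Thbs1 gene, kept static or stretched. Members are picked by gene name, and no measured value enters that rule. The set, like the gene lists below, was nevertheless chosen with earlier results of these data known, so its shares of calls are descriptive only. Of the 35, 33 are in the table of 22081 genes, all 33 passed the filter on low counts, and Srxn1 and Pgd were not analysed here. RNA sequencing covered 4 groups of 3 libraries: Tsp1KO static, WT static, Tsp1KO stretch and WT stretch, 12 in all. Each group came from primary aortic smooth muscle cells of Wistar rats at passages 5 to 8, grown in 20% serum. The KO line was made with Cas9 and a guide against Thbs1, the gene of thrombospondin-1, and was grown out from single sorted cells. No such cloning is stated for WT cells, and the number of clones is not given, so loss of Thbs1 and differences between clones cannot be told apart. Stretch was uniaxial, at 20% strain and 1.0 Hz, after 24 h without serum, for a time that is not given, and for static cells a serum-free period is not stated. Stretch and serum withdrawal therefore cannot be told apart from what is given. The labels do not say whether each library had its own culture, so p-values measure only the spread between these libraries, which may be technical.

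NRF2, the protein of Nfe2l2, is a transcription factor that KEAP1 holds in the cytoplasm and marks for degradation. When electrophiles or oxidants modify KEAP1, NRF2 accumulates, enters the nucleus, pairs with small MAF proteins and binds antioxidant response elements near genes for glutathione synthesis, quinone reduction, thioredoxin reduction and iron storage. In the vessel wall these enzymes, together with superoxide dismutases, catalase and peroxidases, remove superoxide and peroxides that smooth muscle cells and their neighbours make. Several members, among them Sod1, Sod2, Cat and Gpx1, are also controlled by other factors, so the set is broader than the direct targets of NRF2.

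Libraries held 16766965 to 38024110 exon reads. The 4 libraries numbered 3 stood apart, with 9.15% to 11.29% of their gene reads in introns, against 14.75% to 16.46% in the other 8. KO stretch library 3 also had 16.4% of exon reads across exon junctions, against 28.1% to 29.8% in the other 11. Thbs1 itself had 588, 637 and 443 CPM (TMM-scaled counts per 1000000 reads) in KO static libraries 1, 2 and 3, against 3183, 2708 and 2091 CPM in WT static libraries. Under stretch it had 434.5, 418.8 and 282.6 CPM in KO and 1703.9, 1556.0 and 1051.7 CPM in WT libraries. Every KO library thus still held Thbs1 reads. Smooth muscle markers were present in every group, with 7 of 7 in the table, none at 0 and a summed level of 3571 to 4469 CPM in KO static, 4417 to 5226 CPM in WT static, 2998 to 3982 CPM in KO stretch and 4990 to 6119 CPM in WT stretch libraries.

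Levels per exon length, as the deposited RPKM values give them, ran from 0.515 RPKM for Gpx3 to 2518 RPKM for Ftl1 in KO static cells. The ferritin chains Ftl1 and Fth1, which store iron, led in every group, followed by Gstp1, the pi-class glutathione transferase. Only 14.3% of Ftl1 and 43.3% of Fth1 exon reads were unique, so the places of these chains rest largely on reads that map to several places. Ftl1 averaged 2518 ± 630 RPKM in KO static and 1611 ± 300 RPKM in WT static cells (SD, n = 3 each), and Gstp1 averaged 1124 ± 248 and 996 ± 161 RPKM in the same groups. Ftl1, Fth1 and Gstp1 kept places 1 to 3 in all 4 groups, while Nqo1 stood 4th in KO static and 5th in KO stretch, against 10th in WT static and 12th in WT stretch. Aldh3a1 stood 24th in KO static and 32nd in WT static, and Gsta4 took the reverse course, 32nd in KO static and 21st in WT static. Gclm and Gpx3 held places 27 and 33 of 33 in each group. Neighbours in this order often differed by less than their spread: Sod1 at 319 ± 54.2 RPKM and Prdx2 at 278 ± 37.7 RPKM in WT static cells are an example.

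**Figure D1:**
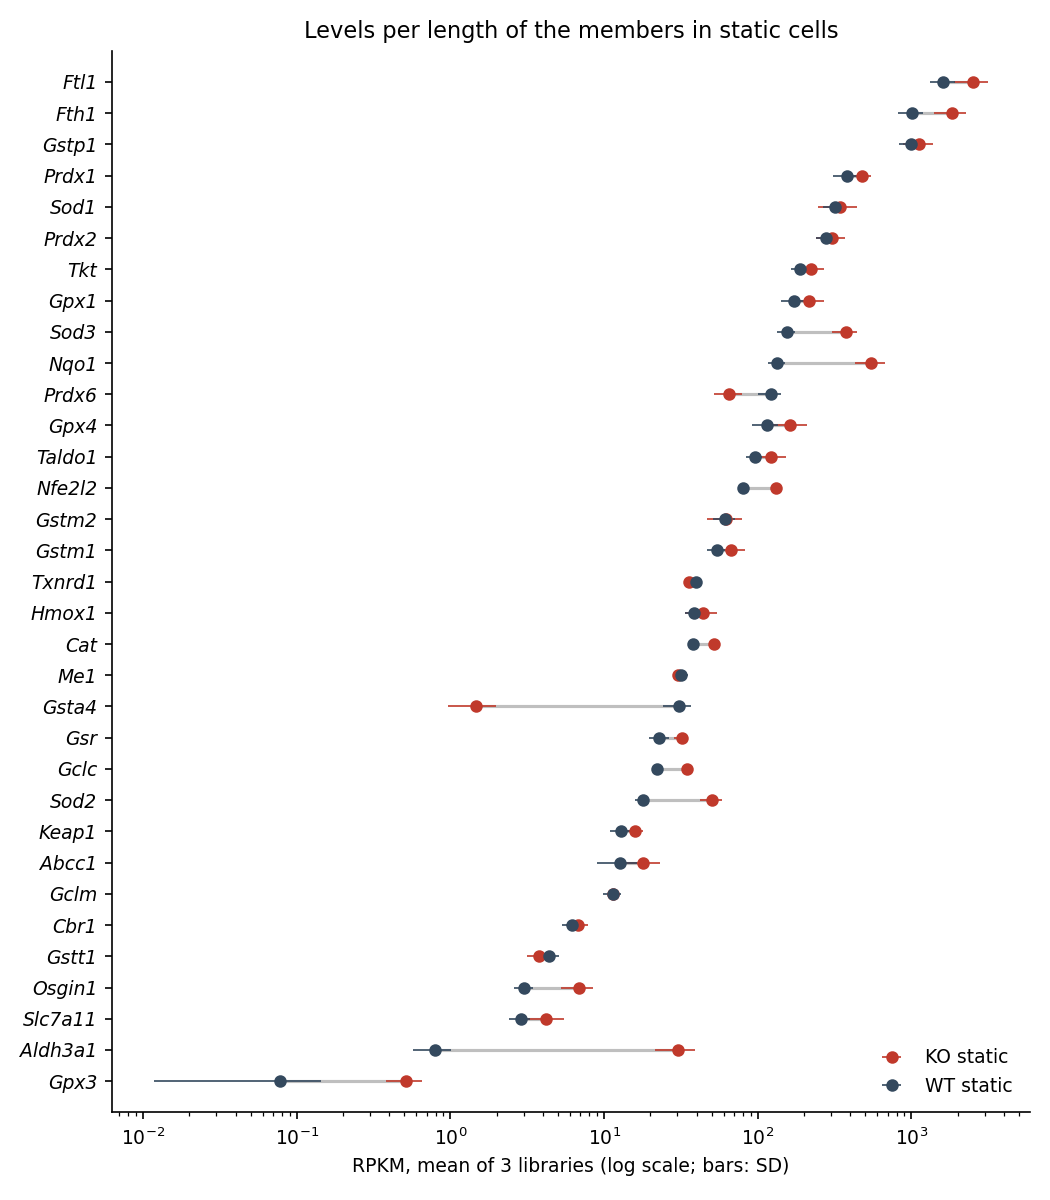
Mean RPKM of the 33 members in KO static (red) and WT static (dark blue) cells on a log axis, with bars for the SD of 3 libraries and members ordered by their WT static level. Nqo1, Aldh3a1, Sod2 and Sod3 lie to the right in KO cells and Gsta4 and Prdx6 to the left, while Ftl1, Fth1 and Gstp1 have the highest RPKM in both. Most Ftl1 and Fth1 reads were not unique.

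Between KO and WT cells, 11 of the 33 members were higher and 2 were lower in the static condition, at an FDR under 0.05 in edgeR's quasi-likelihood test with Benjamini-Hochberg adjustment over 14825 genes. Of all tested genes, 12.1% were called higher and 8.66% lower. The members that rose were Nfe2l2, Gclc, Gsr, Sod2, Sod3, Cat, Gpx3, Nqo1, Aldh3a1, Fth1 and Osgin1, and those that fell were Prdx6 and Gsta4. One of the 11, Gpx3, passed the filter on low counts through its KO libraries alone. Under stretch the same 13 were called in the same directions, with 11.9% of all genes called higher and 8.73% lower. The median log2 fold change of the members was 0.30 in static and 0.23 in stretched cells, against 0.01 and -0.003 for all tested genes. With the library number as a block, 21 members were called higher and 3 lower in static cells (19.8% and 17.8% of all genes), and 19 higher and 4 lower under stretch (19.0% and 18.3%). The block assumes that library numbers pair the groups, but the libraries' correlations set only number 3 apart. Without the 4 libraries numbered 3, 19 were higher and 3 lower in static cells (16.4% and 15.4% of 14925 genes), and 19 higher and 4 lower under stretch (17.5% and 15.9%), and the 13 stayed called in both conditions. DESeq2 called 12 higher and 3 lower in static cells (12.6% and 10.6% of all genes), adding Ftl1 and Txnrd1, and 11 higher and 3 lower under stretch (12.8% and 10.5%), adding Txnrd1.

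**Figure D2:**
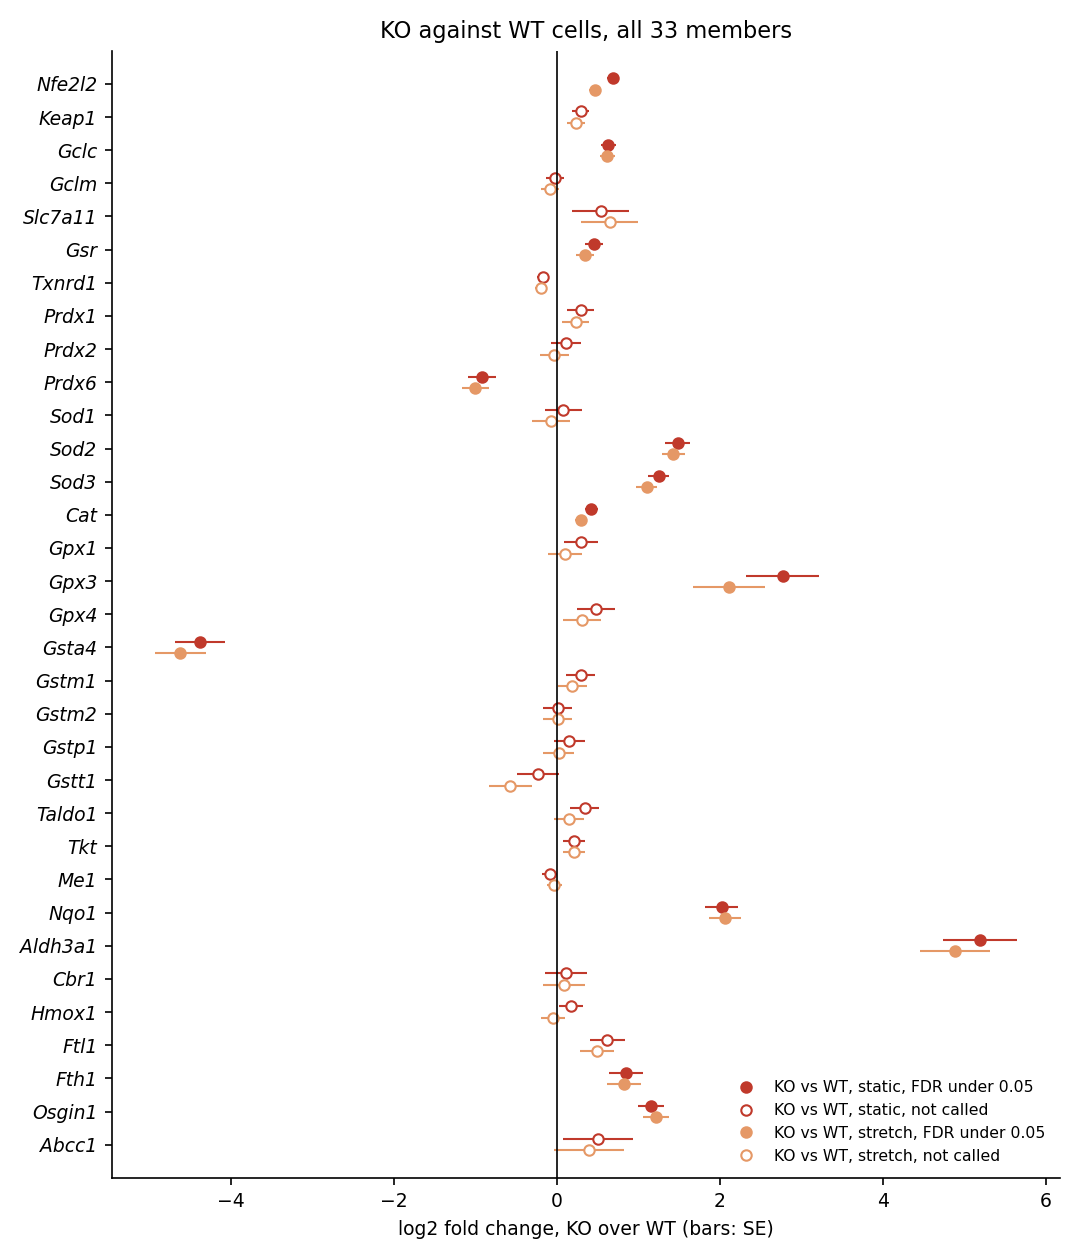
Log2 fold change of KO over WT cells for the 33 members, grouped by role, in static (red) and stretched (orange) cells, with bars for the SE and filled points where the FDR was under 0.05. Aldh3a1 lies farthest right, at 5.19 in static cells, and Gsta4 farthest left, at -4.38, and most members lie within 1 unit of 0.

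The pathway's own regulator was among the genes that rose. Nfe2l2 (ENSRNOG00000001548, chromosome 3 from 62497571 to 62524996 in Rnor_6.0) had 404, 391 and 406 CPM (mean ± SD, n = 3: 400.4 ± 7.80) in KO static libraries 1, 2 and 3, against 245, 249 and 252 CPM (mean 249 ± 3.74) in WT static. It had 354, 361 and 356 CPM (mean 357 ± 3.88) in KO stretch and 243, 251 and 277.5 CPM (mean 257 ± 17.9) in WT stretch libraries. Every KO library lay above every WT library, and the spread within a group was small. The log2 fold change was 0.69 ± 0.07 in static (SE, FDR 4.21e-05) and 0.47 ± 0.07 in stretched cells (FDR 0.000718). Keap1, the inhibitor, had 64.3, 62.6 and 72.2 CPM (mean 66.4 ± 5.15) in KO static and 51.5, 50.4 and 60.6 CPM (mean 54.2 ± 5.59) in WT static libraries. Its groups did not overlap in static cells, but the change of 0.29 ± 0.11 was not called (FDR 0.097, and 0.00104 with the block). With 60.7, 58.9 and 73.5 CPM (mean 64.4 ± 7.96) in KO stretch and 54.3, 51.9 and 58.1 CPM (mean 54.8 ± 3.13) in WT stretch libraries, the change under stretch was 0.23 ± 0.11 (FDR 0.189, and 0.0053 with the block).

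Glutathione supply changed in part. Gclc (chromosome 8 from 85059051 to 85097468), the catalytic subunit of the enzyme that limits glutathione synthesis, had 138, 148 and 131.5 CPM (mean 139 ± 8.31) in KO static and 94.9, 86.0 and 88.7 CPM (mean 89.9 ± 4.54) in WT static libraries. KO libraries were all above WT ones, by a log2 fold change of 0.63 ± 0.09 (FDR 0.00025), and under stretch by 0.62 ± 0.09 (FDR 0.00027). Its partner Gclm, the modifier subunit, was not called: 22.3, 22.0 and 22.6 CPM (mean 22.3 ± 0.321) in KO static libraries stood within the 20.0, 25.0 and 23.1 CPM (mean 22.7 ± 2.53) of WT static ones, a log2 fold change of -0.02 ± 0.11 (FDR 0.943) and of -0.09 ± 0.11 under stretch (FDR 0.672), where KO libraries had 21.5, 23.4 and 19.8 CPM (mean 21.5 ± 1.79) and WT libraries 20.4, 22.9 and 25.5 CPM (mean 22.9 ± 2.56). Gsr, which reduces oxidised glutathione, had 78.3, 84.9 and 87.9 CPM (mean 83.7 ± 4.88) in KO static and 57.7, 56.4 and 68.4 CPM (mean 60.8 ± 6.55) in WT static libraries, with no overlap. Under stretch KO libraries had 70.0, 67.7 and 74.0 CPM (mean 70.6 ± 3.18) and WT libraries 49.7, 53.2 and 63.1 CPM (mean 55.3 ± 6.96), again with no overlap. Gsr rose by 0.46 ± 0.11 (FDR 0.011) and under stretch by 0.35 ± 0.11 (FDR 0.0434). The static call was lost without WT static library 1 or 2 (highest FDR 0.0526), and the stretch call without any of 10 of the 12 libraries (highest FDR 0.232), with other size factors (0.0684) or without the filter (0.105). Slc7a11, the cystine importer, had 60.0, 59.3 and 30.8 CPM (mean 50.1 ± 16.7) in KO static and 41.4, 33.4 and 28.3 CPM (mean 34.3 ± 6.61) in WT static libraries, and 59.1, 68.5 and 26.0 CPM (mean 51.2 ± 22.3) in KO stretch against 32.5, 39.9 and 25.7 CPM (mean 32.7 ± 7.13) in WT stretch. Libraries 1 and 2 of the KO groups stood above every WT library. Library 3 of the KO groups was within the WT range, so the groups overlapped. Within a library number KO was higher in 3 of 3 pairs in both conditions, by 0.53, 0.82 and 0.12 in static and 0.86, 0.77 and 0.02 in stretched cells on the log2(CPM + 0.5) scale, and the changes of 0.54 ± 0.35 and 0.65 ± 0.35 were not called (FDR 0.352 and 0.250, and 0.0396 and 0.0175 with the block).

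Among the quinone and carbonyl enzymes Nqo1 and Aldh3a1 rose severalfold. Nqo1 (ENSRNOG00000012772, chromosome 19 from 38422164 to 38437180), which reduces quinones with NADPH and is widely used as a readout of NRF2, had 974.5, 1097 and 1347 CPM (mean 1139 ± 189.6) in KO static libraries, against 253, 286 and 303.5 CPM (mean 281 ± 25.5) in WT static. Under stretch it had 815, 884 and 972 CPM (mean 890.2 ± 79.0) in KO and 168, 187 and 285 CPM (mean 213 ± 62.6) in WT libraries. No WT library reached a KO library, and the log2 fold changes were 2.02 ± 0.20 (FDR 1.74e-05) and 2.06 ± 0.20 (FDR 1.52e-05). Aldh3a1 (ENSRNOG00000002331, chromosome 10 from 47490153 to 47499876), an aldehyde dehydrogenase best known from the cornea, had 59.8, 59.8 and 87.7 CPM (mean 69.1 ± 16.1) in KO static libraries, against 2.23, 1.26 and 2.08 CPM (mean 1.86 ± 0.521) in WT static. In stretched cells it had 73.7, 79.4 and 77.2 CPM (mean 76.8 ± 2.84) in KO and 1.06, 1.96 and 4.72 CPM (mean 2.58 ± 1.91) in WT libraries. These were the widest gaps upward in the set, 5.19 ± 0.45 (FDR 7.14e-06) and 4.88 ± 0.43 (FDR 8.6e-06) on the log2 scale. Cbr1, a carbonyl reductase, was not called (0.11 ± 0.26 and 0.09 ± 0.26), and only 1.1% of its exon reads mapped to a single place, so its values are uncertain.

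Among superoxide dismutases and catalase, 3 of 4 rose in both conditions. Sod2 (chromosome 1 from 47914759 to 47921587), the mitochondrial enzyme, had 129, 128 and 154 CPM (mean 137 ± 14.9) in KO static and 46.0, 49.0 and 52.4 CPM (mean 49.1 ± 3.18) in WT static libraries, and 133, 139.5 and 158 CPM (mean 143.5 ± 13) in KO stretch against 45.6, 48.5 and 66.1 CPM (mean 53.4 ± 11.1) in WT stretch. KO libraries all lay above WT libraries, by 1.48 ± 0.15 (FDR 1.91e-05) and 1.43 ± 0.14 (FDR 2.53e-05). Sod3 (chromosome 14 from 60958592 to 60964324), the secreted enzyme of the arterial wall, had 788, 779.8 and 975 CPM (mean 848 ± 110.4) in KO static and 338, 339.7 and 392.5 CPM (mean 357 ± 31.1) in WT static libraries. Under stretch it had 777, 768 and 889 CPM (mean 811 ± 67.3) in KO and 356.5, 340.3 and 439 CPM (mean 379 ± 53.1) in WT libraries. Here too the groups stood apart, by 1.25 ± 0.13 (FDR 3.27e-05) and under stretch by 1.1 ± 0.13 (FDR 8.67e-05). Catalase, Cat, which breaks down hydrogen peroxide in peroxisomes, had 179, 170.1 and 171 CPM (mean 173 ± 4.70) in KO static and 129.8, 133 and 127 CPM (mean 129.9 ± 3.12) in WT static libraries, a smaller rise of 0.42 ± 0.08 (FDR 0.00193). Stretched KO libraries had 157, 155 and 144.5 CPM (mean 152 ± 6.68) and stretched WT libraries 123, 119 and 132 CPM (mean 125 ± 6.78), without overlap. Under stretch Cat rose by 0.29 ± 0.07 (FDR 0.0179), a call lost without KO stretch library 1 or 2 or WT stretch library 1 or 2 (highest FDR 0.150). Cytosolic Sod1 had 264, 253 and 372 CPM in KO static and 251, 269 and 320 CPM in WT static libraries, overlapping ranges in which library 3 was the highest of each group, and was not called (0.08 ± 0.23 and -0.07 ± 0.23).

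Of the peroxiredoxins and thioredoxin reductase, Prdx6 alone was called, downward. Prdx6 (ENSRNOG00000002896, chromosome 13 from 79077033 to 79088127), a peroxiredoxin that reduces phospholipid peroxides, had 108, 113 and 141 CPM (mean 120.4 ± 17.7) in KO static and 200, 224 and 258 CPM (mean 227 ± 29.2) in WT static libraries, and 104.5, 107 and 141.5 CPM (mean 118 ± 20.7) in KO stretch against 214, 213 and 281 CPM (mean 236 ± 38.9) in WT stretch. Every KO library was below every WT library, by a log2 fold change of -0.92 ± 0.17 (FDR 0.00204) and -1.0 ± 0.17 (FDR 0.00105). Prdx1 and Prdx2, the abundant cytosolic peroxiredoxins, were not called. Prdx1 stood at 0.29 ± 0.17 and 0.23 ± 0.17 (FDR 0.301 and 0.433, and 0.00419 and 0.0172 with the block), but only 32.8% of its reads were unique and its change under stretch was -0.003 with unique reads. Prdx2 stood at 0.11 ± 0.18 and -0.03 ± 0.18. Txnrd1 (chromosome 7 from 26946125 to 26984400), the cytosolic thioredoxin reductase and a textbook NRF2 target, had 155, 165 and 162 CPM (mean 161 ± 5.47) in KO static, against 180.2, 178 and 186 CPM (mean 181 ± 3.94) in WT static libraries. KO libraries lay a little below WT libraries of the same condition, by -0.17 ± 0.07 (FDR 0.119, and 0.0248 with the block) and under stretch by -0.20 ± 0.07 (FDR 0.0726, and 0.0121 with the block). Txnrd1 was called lower in both conditions by DESeq2 (adjusted p = 0.00867 and 0.00268) and without the libraries numbered 3 (FDR 0.0414 and 0.0466).

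Of the glutathione peroxidases, Gpx3, the secreted form, was called but rested on very few reads. It had 17, 21 and 47 reads in KO static libraries, against 3, 5 and 1 in WT static, and 18, 13 and 22 reads in KO stretch, against 4, 3 and 5 in WT stretch. It passed the filter through its KO libraries alone, so a difference was built into its passing. In CPM this is 0.896, 0.859 and 1.22 CPM (mean 0.993 ± 0.201) in KO static and 0.124, 0.30 and 0.0416 CPM (mean 0.155 ± 0.132) in WT static, and 0.722, 0.636 and 0.607 CPM (mean 0.655 ± 0.0598) in KO stretch and 0.163, 0.107 and 0.175 CPM (mean 0.148 ± 0.0361) in WT stretch libraries. KO and WT libraries did not overlap, and the fitted log2 fold changes were 2.77 ± 0.45 (FDR 0.000959) and 2.11 ± 0.44 (FDR 0.00482). The ratio of its summed rates was 7.67 in static cells (95% interval 3.85 to 17.3) and 4.61 under stretch (2.43 to 9.48), intervals that cover counting error only. Gpx4, which reduces lipid peroxides in membranes, stood at 0.48 ± 0.23 and 0.31 ± 0.23 (FDR 0.184 and 0.426, and 0.000469 and 0.00672 with the block), with 57.1% of its reads unique and -0.14 under stretch with unique reads. Cytosolic Gpx1 stood at 0.30 ± 0.21 and 0.10 ± 0.21 (FDR 0.401, and 0.0200 with the block, in static cells).

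One glutathione transferase fell far below the rest. Gsta4 (ENSRNOG00000030449, chromosome 8 from 85497557 to 85518879), the alpha-class enzyme that conjugates hydroxynonenal and other products of lipid peroxidation, had 2.06, 1.31 and 2.47 CPM (mean 1.95 ± 0.590) in KO static libraries, against 36.7, 38.0 and 48.9 CPM (mean 41.2 ± 6.74) in WT static. Under stretch it had 1.12, 1.32 and 2.48 CPM (mean 1.64 ± 0.735) in KO and 35.8, 38.9 and 50.5 CPM (mean 41.8 ± 7.74) in WT libraries. The KO level was low in all 6 libraries, and the log2 fold changes were -4.38 ± 0.31 (FDR 1.46e-06) and -4.62 ± 0.31 (FDR 1.13e-06). Gclc starts 0.44 Mb from Gsta4 on the same chromosome and rose in the same cells. Over all members, the tested genes within 5 Mb, 15 to 214 of them, had median log2 fold changes of -0.14 to 0.18 in static cells. The other transferases were not called: Gstm1 stood at 0.29 ± 0.18 and 0.19 ± 0.18 (block FDR 0.00401 and 0.0284), Gstm2 at 0.01 ± 0.18 in both, Gstp1 at 0.15 ± 0.19 and 0.02 ± 0.19, and Gstt1 at -0.23 ± 0.26 and -0.57 ± 0.26 (block FDR 0.362 and 0.0200).

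Of the 3 haem and iron genes 1 rose, Fth1, and of the other targets Osgin1 rose and Abcc1 was not called. Fth1, the ferritin heavy chain, had 1848, 1750.3 and 2412 CPM (mean 2003.5 ± 357.5) in KO static and 988, 1067 and 1281 CPM (mean 1112 ± 151) in WT static libraries, without overlap. Under stretch it had 1589, 1614 and 2374 CPM (mean 1859 ± 446) in KO and 878, 928 and 1348 CPM (mean 1051 ± 258) in WT libraries, again apart. Fth1 rose by 0.85 ± 0.21 (FDR 0.0140) and under stretch by 0.82 ± 0.21 (FDR 0.0166). With unique reads, 43.3% of its total, Fth1 lost both calls and stood at 0.81 ± 0.30 (FDR 0.0847) and 0.28 ± 0.30 (FDR 0.594). It also lost them without WT library 1 or 2 or KO library 3 of the condition (highest FDR 0.063 in static and 0.105 in stretched cells). Ftl1, the light chain, stood at 0.62 ± 0.21 and 0.49 ± 0.21 (FDR 0.0545 and 0.126, and 7.31e-05 and 0.000261 with the block), but the table's Ftl1 entry has no intron, 0.0% junction reads and 14.3% unique reads, so its reads cannot be assigned with certainty. Hmox1 (chromosome 19 from 14508616 to 14515456), the inducible haem oxygenase, had 79.7, 83.2 and 109 CPM (mean 90.5 ± 15.8) in KO static and 75.8, 77.6 and 88.8 CPM (mean 80.7 ± 7.06) in WT static libraries. The groups overlapped, and neither the static change of 0.17 ± 0.15 (FDR 0.518) nor the stretch change of -0.05 ± 0.15 (FDR 0.886) was called. Osgin1, a growth inhibitor induced by oxidative stress, had 16.2, 19.8 and 23.6 CPM (mean 19.9 ± 3.73) in KO static and 10.7, 7.99 and 8.15 CPM (mean 8.93 ± 1.49) in WT static libraries. Under stretch KO libraries had 15.5, 16.1 and 16.2 CPM (mean 15.9 ± 0.344) and WT libraries 6.30, 6.47 and 7.77 CPM (mean 6.84 ± 0.802). Osgin1 was higher in every KO library, by 1.15 ± 0.16 (FDR 0.000291) and under stretch by 1.22 ± 0.16 (FDR 0.000198). Abcc1, an exporter of glutathione conjugates, stood at 0.50 ± 0.43 and 0.39 ± 0.43 (FDR 0.504 and 0.618, and 0.00146 and 0.00725 with the block).

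NADPH supply gave no call. Taldo1 and Tkt, enzymes of the non-oxidative pentose phosphate pathway, stood at 0.34 ± 0.18 and 0.21 ± 0.14 in static cells (FDR 0.240 and 0.355, and 0.00207 and 0.0150 with the block). Under stretch Taldo1 stood at 0.15 ± 0.18 (FDR 0.652) and Tkt at 0.21 ± 0.14 (FDR 0.352, and 0.0106 with the block). Malic enzyme, Me1, had 120, 132 and 117 CPM in KO static and 119.5, 137 and 136 CPM in WT static libraries, overlapping throughout, at -0.09 ± 0.09 (FDR 0.554).

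**Figure D3:**
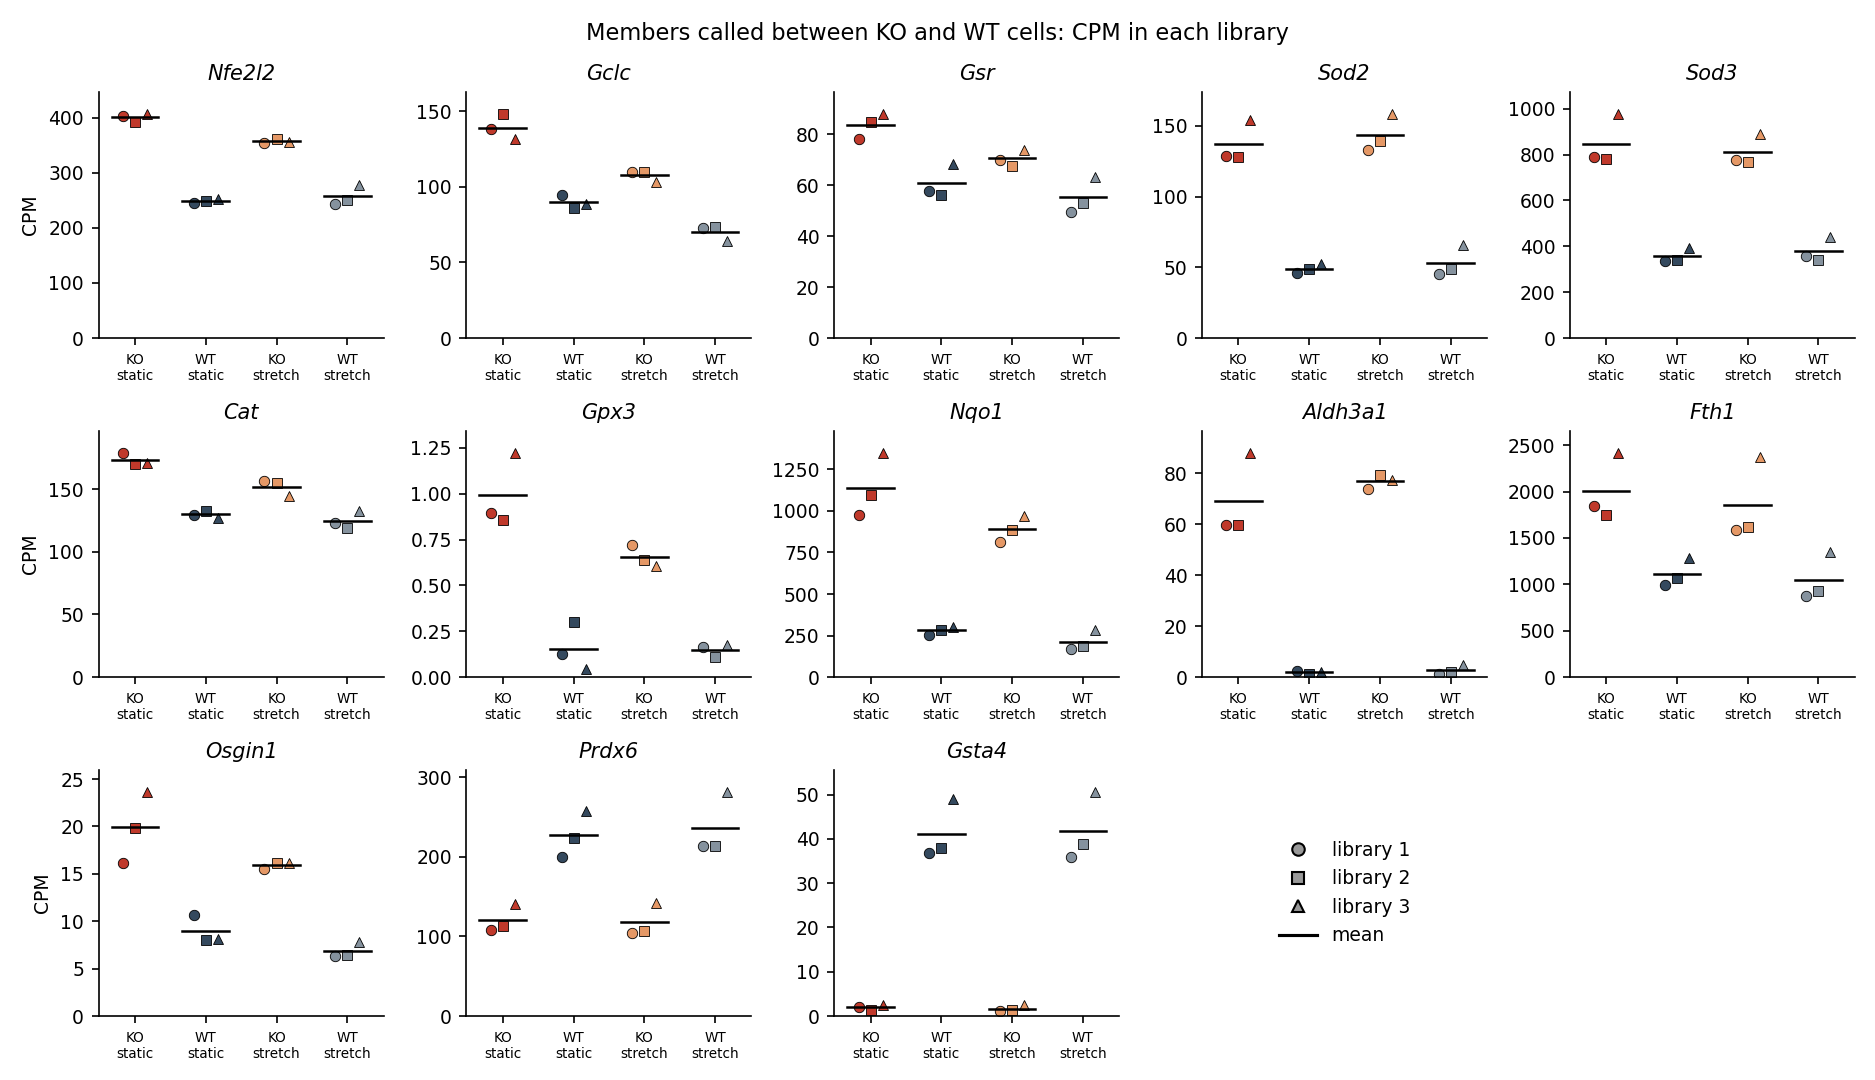
CPM in each library for the 13 members called between KO and WT cells, 1 panel per gene from 0, with circles, squares and triangles for libraries 1, 2 and 3 and a line for the mean of each group. KO libraries lie above WT libraries of the same condition in the first 11 panels and below them for Prdx6 and Gsta4, and library 3 is often the highest of its group.

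Promoters were read for the members that have a window in the RefSeq table of build GRCr8, which covers 250 bases before and 50 bases after each gene's start. Of the 33 members 25 have one, and Gsr, Prdx6, Sod3, Gstt1, Aldh3a1, Hmox1, Ftl1 and Fth1 have none. The core of the antioxidant response element was searched as TGACNNNGC on both strands. It is in a window of 7 of the 25 members (28.0%), against 3602 of all 27457 genes (13.1%). Each match is shown in capitals with up to 15 bases on each side, on the gene's strand, since these are the letters the pathway is known by and they can be set beside each gene's behaviour.
Nfe2l2, chr3:81028950-81028976, minus strand, 38 bases after the start: gctccgactagccatTGACGCCGCctc
Gclm, chr2:213031948-213031986, plus strand, 172 bases before the start: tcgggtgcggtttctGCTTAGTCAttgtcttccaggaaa
Txnrd1, chr7:22755959-22755997, minus strand, 78 bases before the start: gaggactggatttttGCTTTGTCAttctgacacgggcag
Prdx1, chr5:135383756-135383794, plus strand, 135 bases before the start: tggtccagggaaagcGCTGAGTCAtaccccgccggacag
Sod2, chr1:50050180-50050218, minus strand, 35 bases before the start: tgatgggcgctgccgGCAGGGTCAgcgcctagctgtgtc
Gstp1, chr1:210769743-210769781, minus strand, 61 bases before the start: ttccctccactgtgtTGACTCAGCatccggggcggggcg
Me1, chr8:96540388-96540426, minus strand, 167 bases before the start: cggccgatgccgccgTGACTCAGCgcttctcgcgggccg

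Of these 7 genes, 2 were called higher in KO cells, Nfe2l2 and Sod2, and 5 were not called, Gclm, Txnrd1, Prdx1, Gstp1 and Me1. Of the 8 members with a window that were called between KO and WT static cells, 6 hold no such core there. The looser pattern TGANNNNGC, which takes in every match to the first, is in a window of 14 of 25 members (56.0%) and of 42.5% of all genes. The windows of Nqo1 and Gsta4, members that moved far in opposite directions, are given whole, with a match to the looser pattern in capitals. Nqo1 has 1 such match and Gsta4 has 0. A match is a description of letters, and elements outside these windows were not looked for.
Nqo1, chr19:52220218-52220517, minus strand: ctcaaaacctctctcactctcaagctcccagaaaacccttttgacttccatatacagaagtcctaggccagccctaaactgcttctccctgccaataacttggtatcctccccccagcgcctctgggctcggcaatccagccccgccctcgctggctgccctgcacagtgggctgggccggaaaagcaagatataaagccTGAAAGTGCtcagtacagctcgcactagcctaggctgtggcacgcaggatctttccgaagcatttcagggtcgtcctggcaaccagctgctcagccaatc
Gsta4, chr8:87947015-87947314, plus strand: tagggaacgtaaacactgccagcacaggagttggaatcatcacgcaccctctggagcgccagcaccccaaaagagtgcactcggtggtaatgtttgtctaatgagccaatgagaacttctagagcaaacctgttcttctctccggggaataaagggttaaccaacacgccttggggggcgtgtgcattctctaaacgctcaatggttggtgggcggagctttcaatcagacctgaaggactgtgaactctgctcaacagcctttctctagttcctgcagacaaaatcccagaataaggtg

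Few members were called for stretch, and most of those calls were downward. Serum withdrawal is stated for stretched cells only, so in these comparisons the 2 cannot be told apart. In KO cells 1 member fell, Txnrd1, and 0 rose (0.587% and 0.209% of all genes). There, 6 of 33 members had an unadjusted p under 0.05 (1153 of all 14825 genes). DESeq2 called 3 lower, Gclc, Txnrd1 and Hmox1 (1.39% of all genes). In WT cells edgeR called 0 higher and 0 lower (0.277% and 0.465% of all genes). There, 4 of 33 members had an unadjusted p under 0.05 (1403 of all 14825 genes). DESeq2 called 2 lower, Gclc and Txnrd1 (1.52% of all genes). The median log2 fold change of the members was -0.15 in KO and -0.04 in WT cells, against -0.0005 and 0.01 for all genes, and 26 members in KO and 17 in WT cells lay below 0. With the library number as a block, 5 members fell in KO cells, Gclc, Gsr, Txnrd1, Gstp1 and Hmox1, and 0 rose (3.02% and 1.41% of all genes). In WT cells with the block 5 fell, Gclc, Txnrd1, Tkt, Nqo1 and Hmox1, and 1 rose, Sod1 (3.64% and 2.73%). Without the libraries numbered 3, 4 fell and 0 rose in KO cells (1.84% and 1.11%), and 7 fell and 0 rose in WT cells (2.22% and 1.31%).

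Txnrd1 had 127, 129 and 119 CPM (mean 125 ± 5.41) in KO stretch libraries, against 155, 165 and 162 CPM in KO static, and 143, 144 and 142.5 CPM (mean 143 ± 0.620) in WT stretch, against 180.2, 178 and 186 CPM in WT static. Stretched libraries lay below static ones in both genotypes, with almost no spread in WT stretch. The log2 fold change was -0.37 ± 0.07 in KO (FDR 0.0401, and 0.00221 with the block) and -0.34 ± 0.07 in WT cells (FDR 0.0592, and 0.00308 with the block). The KO call was lost when any 1 of the 12 libraries was left out (FDR 0.0515 to 0.204).

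Hmox1 had 56.1, 60.3 and 60.7 CPM (mean 59.0 ± 2.57) in KO stretch, against 79.7, 83.2 and 109 CPM in KO static, and 57.7, 52.2 and 73.0 CPM (mean 61.0 ± 10.8) in WT stretch, against 75.8, 77.6 and 88.8 CPM in WT static libraries. Each stretched library was below every static library of its genotype. The change was -0.62 ± 0.15 in KO (FDR 0.115, and 0.00111 with the block) and -0.40 ± 0.15 in WT cells (FDR 0.351, and 0.0112 with the block). Gclc had 109.7, 110.0 and 103 CPM (mean 108 ± 3.77) in KO stretch and 72.6, 73.3 and 64.0 CPM (mean 70.0 ± 5.18) in WT stretch libraries, below every static library of the same genotype. Its change was -0.37 ± 0.09 in KO (FDR 0.101, and 0.00327 with the block) and -0.36 ± 0.09 in WT cells (FDR 0.106, and 0.00369 with the block).

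Gsr, Gstp1, Tkt and Nqo1 were lower under stretch in all 6 same-numbered pairs as well, and Sod1 was higher in all 6. Members without a call did the same: Gstm2 and Osgin1 were lower, and Prdx1 and Prdx2 higher, in all 6. The block fit uses these same pairs, and the share of all genes with such agreement was not taken. Nqo1 stood at -0.36 ± 0.19 in KO (FDR 0.767, and 0.0581 with the block) and -0.40 ± 0.19 in WT cells (FDR 0.557, and 0.0188 with the block), where WT stretch library 3, at 285 CPM, overlapped the static range. Same-numbered pairs of WT libraries differed by -0.59, -0.61 and -0.09. Gsr stood at -0.25 ± 0.11 and Gstp1 at -0.30 ± 0.19 in KO cells (FDR 0.629 and 0.875, and 0.0490 and 0.00956 with the block). Tkt stood at -0.21 ± 0.14 and Sod1 at 0.30 ± 0.23 in WT cells (FDR 0.759 and 0.819, and 0.0468 and 0.0420 with the block). The Sod1 difference was larger in library 3, at 0.51, than in libraries 1 and 2, at 0.20 and 0.12. Nfe2l2 did not pass in either genotype, at -0.17 ± 0.07 in KO (FDR 0.631) and 0.05 ± 0.07 in WT cells (FDR 0.961), although its KO stretch libraries all lay below its KO static ones. Also not called were Keap1 (-0.04 ± 0.11 and 0.02 ± 0.11), Gclm (-0.05 ± 0.11 and 0.02 ± 0.11) and Slc7a11 (0.03 ± 0.35 and -0.07 ± 0.35) in KO and WT cells. Osgin1 stood at -0.32 ± 0.16 and -0.39 ± 0.16, and Aldh3a1 at 0.15 ± 0.35 and 0.46 ± 0.44, without a call in either fit.

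**Figure D4:**
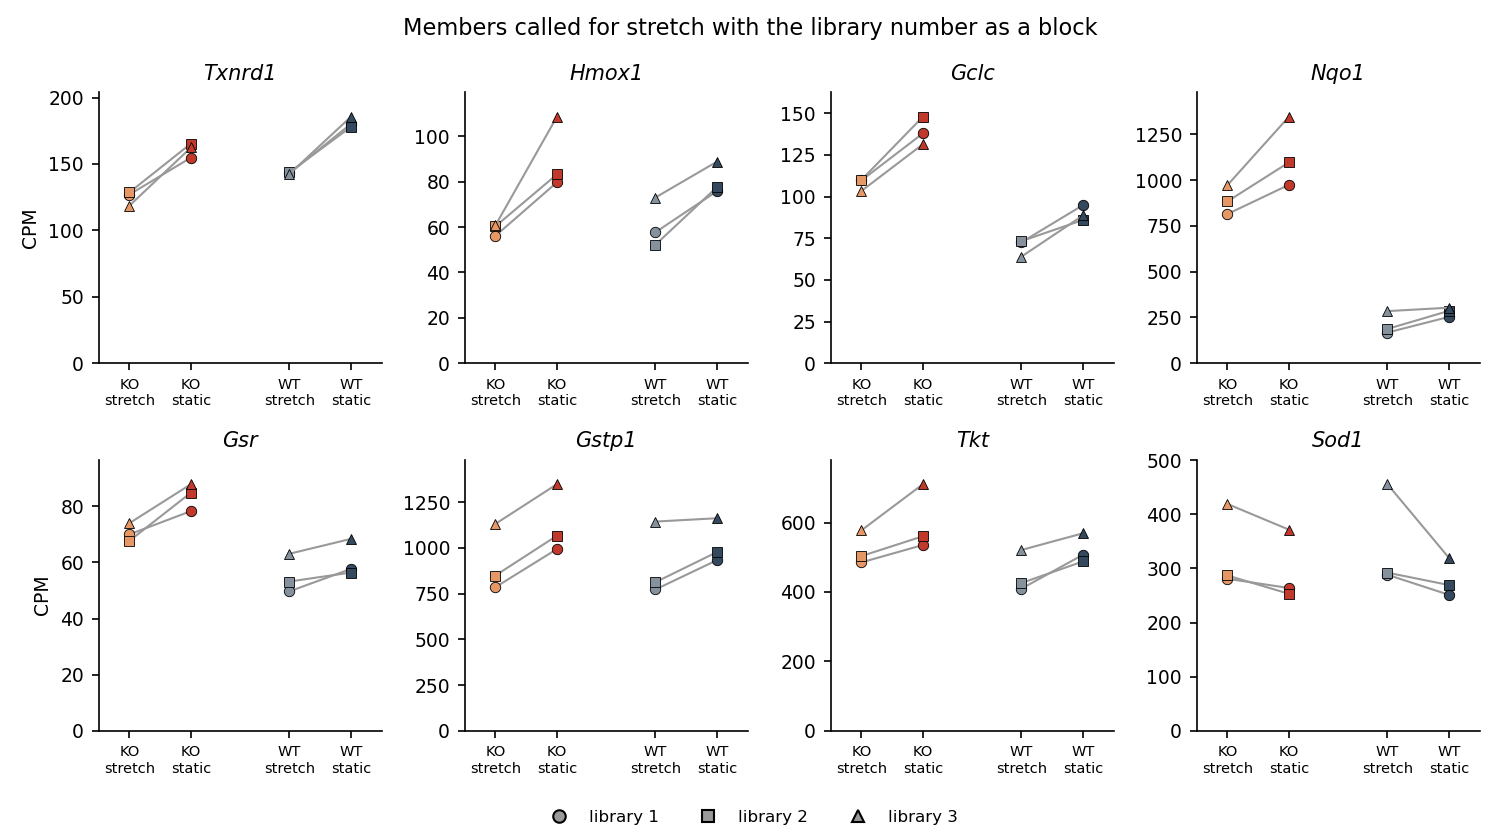
CPM of the 8 members called for stretch in either genotype with the library number as a block, with stretched libraries left of static ones and lines joining libraries of the same number (circle 1, square 2, triangle 3). Lines for Txnrd1, Hmox1, Gclc, Nqo1, Gsr, Gstp1 and Tkt climb toward static in all 6 pairs, and those of Sod1 descend.

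Whether the response to stretch differed between KO and WT cells was tested as an interaction. In edgeR 0 of 33 members passed (0.0% of all genes), and 0 had an unadjusted p under 0.05 (336 of all 14825 genes). In DESeq2 0 passed (0.0607% of all genes), as with the block (0.0135%) or without the libraries numbered 3 (0.0201%). The differences had a median of -0.11 on the log2 scale, with 28 of 33 below 0, against a median of -0.01 for all genes. The share of all genes below 0 was not taken, and for some members the lean lay in library 3. On the log2(CPM + 0.5) scale, Ftl1 changed with stretch by -0.21, -0.20 and -0.41 in KO libraries 1, 2 and 3. In WT libraries it changed by -0.22, -0.38 and 0.05. Nfe2l2 leaned downward in each number, with -0.19, -0.12 and -0.19 in KO and -0.01, 0.01 and 0.14 in WT cells. The interaction differences ran from -0.66 ± 0.67 for Gpx3, which has 1 to 47 reads a library, and -0.34 ± 0.37 for Gstt1, the next lowest, to 0.10 ± 0.49 for Slc7a11. For Nqo1 the difference was 0.04 ± 0.27, for Hmox1 -0.21 ± 0.21, for Txnrd1 -0.03 ± 0.10 and for Nfe2l2 -0.22 ± 0.10 (unadjusted p = 0.0646, FDR 1.0 in edgeR).

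The members carry the library number visibly. Relative to the mean of libraries 1 and 2 of the same group on the log2(CPM + 0.5) scale, library 3 was higher by a median of 0.44 for the 8 members with up to 1000 exon bases, by 0.28 for the 19 of intermediate length and by -0.06 for the 6 with 3000 bases or more. The 2 longest members were the lowest there. Abcc1, with 4590 exon bases, had 69.9 CPM in KO static library 3, against 124 and 137.5 CPM in libraries 1 and 2, and 39.2 CPM in WT stretch library 3, against 98.0 and 90.5 CPM. Slc7a11, with 8894 bases, lay lower in library 3 of each group as well. Members of intermediate length ran from -0.02 to 0.55 on average over the groups. Nfe2l2 and Cat, at 0.06 and -0.02, were at the low end of that range.

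**Figure D5:**
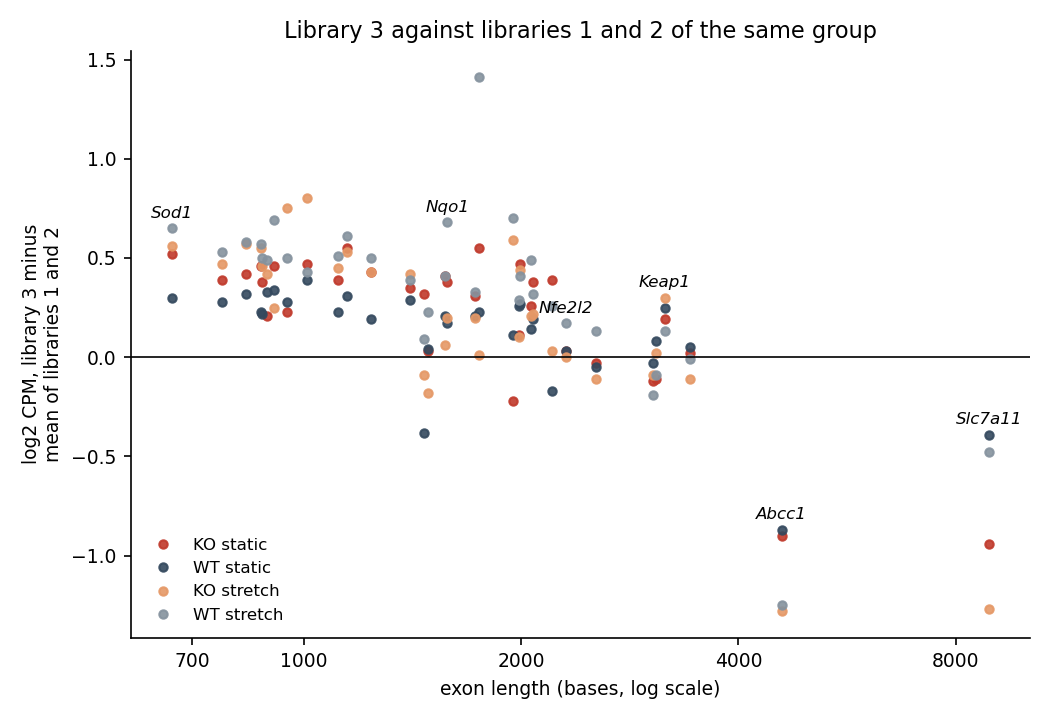
Difference of library 3 from the mean of libraries 1 and 2, in log2(CPM + 0.5), against exon length on a log axis, with 1 point per member and group. Members with up to 1000 bases lie between 0.21 and 0.75, Aldh3a1 reaches 1.41 in the WT stretch group, and Abcc1 and Slc7a11 lie below 0 in all 4 groups.

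Around the members, 11 lists of pathway genes that are not members held 186 tested genes. Of these, 42 were higher and 21 lower in KO than WT static cells, and 40 higher and 31 lower under stretch (65 and 40, and 64 and 44, with the block). These are 22.6% and 11.3% of the 186 in static and 21.5% and 16.7% in stretched cells, against 12.1% and 8.66%, and 11.9% and 8.73%, of all genes. With the block they are 34.9% and 21.5%, and 34.4% and 23.7%, against 19.8% and 17.8%, and 19.0% and 18.3%. Between KO and WT cells, a single call in a list of 14 to 16 genes lies under the share of all genes in either direction. Of 31 detoxification and export genes 11 rose and 1 fell in each condition: Cyp1b1, a cytochrome that oxidises steroids and polycyclic compounds, stood at 1.94 ± 0.15 (FDR 2.54e-06) and 1.90 ± 0.15, Aox1, aldehyde oxidase, at 1.69 ± 0.24 and 1.84 ± 0.24, Ephx1, microsomal epoxide hydrolase, at 1.11 ± 0.17 in static cells, and Abcb6, a porphyrin transporter, at 1.23 ± 0.16 under stretch. Ptgr1, a reductase of alkenals and prostaglandins that NRF2 is known to control, went the other way at -1.76 ± 0.20 (FDR 6.78e-05) and -1.85 ± 0.20. The list's median was 0.36 and 0.34.

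ATF4 targets, which share Slc7a11 with NRF2, were mostly lower in KO cells, 10 of 16 in static and 13 of 16 under stretch with 1 higher in each, and a median of -0.66 and -0.64. Vldlr, a lipoprotein receptor, stood at -2.33 ± 0.15 (FDR 7.04e-07) and -2.36 ± 0.15, Trib3, a pseudokinase of the stress response, at -1.27 ± 0.18 and -1.32 ± 0.18, and Chac1, which degrades glutathione and is on the glutathione list as well, at -1.11 ± 0.17 and -1.22 ± 0.17. Slc7a5, an amino acid transporter, stood at -1.14 ± 0.11 under stretch. The exception was Ddit4, an inhibitor of mTORC1, at 1.12 ± 0.13 in static cells.

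Among the 14 regulators and partners of NRF2, 1 was higher and 1 lower in each condition, and the small MAF gene Maff rose by 1.67 ± 0.13 (FDR 2.6e-06) and 1.73 ± 0.12. The one lower was Nfe2l3, a relative of Nfe2l2 named after its values were seen, at -1.66 ± 0.30 and -1.17 ± 0.30. Of 19 glutathione genes 5 were higher and 1 lower in static and 6 and 3 in stretched cells, led by Mgst1, a microsomal transferase, at 2.44 ± 0.24 and 2.65 ± 0.24, and Anpep, an aminopeptidase, at 1.35 ± 0.12 and 1.54 ± 0.12. Ggt1, among those higher in both conditions, had at most 0.458 CPM in WT libraries and passed the filter only with its KO libraries. A difference was thus built into its passing, and it also counts in the total over the lists. Other transferases gave 4 higher of 11 in static and 3 higher and 1 lower in stretched cells, with Gstz1 at 1.2 ± 0.12 and 0.98 ± 0.12 and Gsta6, another alpha-class gene, at 1.18 ± 0.19 and 1.1 ± 0.19. Of 21 thioredoxin-system genes 4 were higher and 2 lower in static and 2 and 2 in stretched cells. Glrx, a glutaredoxin, stood at -1.23 ± 0.13 and -1.40 ± 0.13, and Msrb2, a mitochondrial methionine sulfoxide reductase, at 1.21 ± 0.20 and 0.88 ± 0.20. NADPH supply gave 6 higher and 3 lower of 17 in static and 6 and 5 in stretched cells, with Aldh1l2, the mitochondrial formyltetrahydrofolate dehydrogenase, at 2.36 ± 0.11 and 2.28 ± 0.11 and Mthfd2, a mitochondrial folate enzyme, at -0.74 ± 0.12 in both.

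Iron and haem handling gave 5 higher and 1 lower of 16 in static and 5 and 2 in stretched cells, and Slc39a8, an importer of zinc, manganese and iron, rose by 3.73 ± 0.26 (FDR 1.46e-06) and 3.93 ± 0.26. Among 14 oxidant sources 2 were higher and 1 lower in static and 2 and 2 in stretched cells. Nox1, an NADPH oxidase of smooth muscle whose entry overlaps that of Cstf2, had 18.6, 18.0 and 16.9 CPM in KO static and 1.32, 1.74 and 1.83 CPM in WT static libraries (3.45 ± 0.15, FDR 4.4e-08), with Xdh, xanthine dehydrogenase, at 2.92 ± 0.18 and Maoa, a monoamine oxidase, at -0.84 ± 0.10. Nox1 was also the one gene of these lists called for stretch in both genotypes, at 0.68 ± 0.12 in KO (FDR 0.0312) and 0.85 ± 0.15 in WT cells (FDR 0.0278), but each call held in only 3 of the 12 fits without 1 library (highest FDR 0.143 and 0.119). Of 14 ferroptosis genes 3 were higher and 1 lower in each condition (Slc1a5, a glutamine carrier, at -0.99 ± 0.09 in static cells), and of 15 selenoprotein genes 0 were higher and 1 lower in each (Sephs1 at -0.34 ± 0.08). For stretch itself, 1 list gene was higher and 3 lower in KO cells (0.538% and 1.61%, against 0.209% and 0.587% of all genes). In WT cells 1 was higher and 0 lower (0.538% and 0.0%, against 0.277% and 0.465% of all genes).

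Markers of other cells differed between the genotypes along with the members. Of the 5 epithelial markers 4 were tested and 3 were higher in KO cells in each condition: Cdh1, Krt8 and Krt14 in static and Krt8, Krt18 and Krt14 in stretched cells. Krt14, Krt18 and Cdh1 had at most 0.732, 0.30 and 0.901 CPM in WT libraries. They passed the filter on low counts only with KO libraries, so a difference was built into their passing. The 5 epithelial markers summed to 50.7 to 64.8 CPM in KO static, against 22.2 to 28.4 CPM in WT static libraries. Under stretch they summed to 51.0 to 75.7 CPM in KO and 22.8 to 29.9 CPM in WT libraries. Krt8 alone made most of these sums, with means of 44.3 CPM in KO static and 24.0 CPM in WT static libraries. Krt14, a keratin of basal epithelium, had 8.22, 7.98 and 11.9 CPM in KO static and 0.165, 0.0 and 0.25 CPM in WT static libraries. Mesothelial markers summed to 22.8 to 23.7 CPM in KO static, against 10.2 to 12.4 CPM in WT static, and 19.9 to 21.0 CPM in KO stretch, against 7.80 to 8.89 CPM in WT stretch libraries. Of the 4 tested, 3 were higher and 1 lower in static cells, and 2 higher under stretch. Fibroblast markers summed to 19561 to 20281 CPM in KO static, against 31893 to 43257 CPM in WT static libraries, with 1 higher and 2 lower of 5 in each condition. Nearly all of that sum was Col1a1, with means of 19447 CPM in KO static and 36949 CPM in WT static libraries. Lum went the other way, at 444.5 and 236.5 CPM. Of 7 smooth muscle markers 2 were higher and 2 lower in static cells, and 1 higher and 3 lower under stretch. Endothelial markers summed to 4.53 to 12.7 CPM, with 1 lower of 4 in static cells, and leukocyte and adipocyte markers to at most 2.52 CPM with no call, and no marker of any list was at 0 in a whole group. What part these other transcripts have in the members' differences was not tested, and in such bulk samples fewer cells of a type and less RNA per cell cannot be told apart.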

How the data were processed

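Per the labels, poly(A) RNA from 500 ng total RNA was read as paired ends of 36 bases on a NextSeq 500, and the authors mapped the reads to Rnor_6.0 and counted them over annotated genes with CLC Genomics Workbench 12.0. The deposited counts are whole reads in the exons of each gene, with multi-mapped reads in the total and left out of the unique count, per the file headers. The deposited RPKM values are the authors' and were used for levels between genes only. How strand was used in counting, any trimming, and the annotation release are not given in the sources used here. A start in the table is counted from 0 and is printed from 1.

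Total exon reads were fitted in edgeR 4.0.16 (R 4.3.3): genes that passed filterByExpr with a minimum count of 10 and had an exon length above 0 (14825), TMM scaling, 1 mean for each of 4 groups over 12 libraries, 8 residual degrees of freedom, quasi-likelihood F tests and Benjamini-Hochberg adjustment over all genes (FDR), called under 0.05. The step was tested on simulated data of independent libraries. Those lack the shared difference of the libraries numbered 3, so that test does not cover it. Levels are TMM-scaled CPM and limited in precision by 16766965 to 38024110 exon reads and 3 libraries a group.

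Library numbers were taken to pair the groups. Every same-numbered pair correlated above 0.1, but that cut does not tell same-numbered pairs of numbers 1 and 2 from unlike ones. After removal of group means, libraries of the same number correlated at 0.159 to 0.233 (number 1), 0.122 to 0.259 (number 2) and 0.404 to 0.559 (number 3, 6 pairs each), against -0.402 to -0.155 between number 3 and the others (24 pairs) and 0.0784 to 0.292 between numbers 1 and 2 (12 pairs). Number 3 thus stood apart, while numbers 1 and 2 were not separated from each other. A pairing across groups by numbers 1 and 2 is therefore an assumption of the block fit. A fit with the number as a block, DESeq2 1.42.0, other size factors, no filter, unique reads, an exon-length offset and left-out libraries were the alternatives.

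The members and the gene lists were chosen with earlier results of these data known. Every member in the table is named, those called and the main pathway genes in full, and each list names up to 4 called genes of largest change with a mean log2 CPM of at least 2. Genes without a window in the promoter table are named only.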

Additional observations from a re-analysis of the deposited data

How the results depend on the processing

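Of the 13 members called between KO and WT cells, 11 in static and 10 in stretched cells stayed called under every alternative, the exceptions being Gsr and Fth1 in both and Cat under stretch. Leaving out 1 library gave 11 to 14 member calls in static and 10 to 14 in stretched cells, and 0 for stretch in either genotype. List genes called numbered 56 to 64 and 53 to 73 (KO against WT), 0 to 4 (stretch, KO) and 0 to 2 (stretch, WT). The replicate block gave 24 and 23 members and 105 and 108 list genes for KO against WT, and for stretch 5 and 18 in KO and 6 and 26 in WT cells. Combined with the exon length offset it gave 24 and 23 members and 106 and 116 list genes, for stretch 8 and 28 in KO and 9 and 29 in WT cells, and 1 list gene in the interaction, with 5830 and 6023 of all genes called for KO against WT, 895 and 1190 for stretch in KO and WT cells, and 9 in the interaction. The block changed no other call of a member than those given above. Without the libraries numbered 3, members called numbered 22 and 23 for KO against WT, and for stretch 4 members and 16 list genes in KO and 7 and 10 in WT cells. DESeq2 gave for stretch 3 members and 10 list genes in KO and 2 and 5 in WT cells. The exon length offset alone gave 2 members in KO, and 1 member and 2 list genes in WT cells, for stretch. No filter gave 0 members and 2 list genes, and unique reads 0 members, for stretch in KO cells.

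Signs turned only for members that were not called in that comparison as reported. For KO against WT without 1 library, Gclm in static cells ran from -0.11 to 0.05 and Hmox1 under stretch from -0.18 to 0.10. Without number 3, Gclm was 0.04 and Hmox1 0.08 under stretch, and unique reads gave -0.003 for Prdx1 and -0.14 for Gpx4 under stretch. For stretch in KO cells without 1 library, Keap1 ran from -0.15 to 0.02, Gclm from -0.12 to 0.004 and Slc7a11 from -0.23 to 0.35. Gclm was 0.02 without number 3, and Slc7a11 -0.0003 with the block and -0.001 with block and offset. For stretch in WT cells without 1 library, Nfe2l2 ran from -0.01 to 0.09, Keap1 from -0.03 to 0.11, Gclm from -0.07 to 0.10 and Slc7a11 from -0.23 to 0.09. Nfe2l2 was -0.004 and Gclm -0.05 without number 3, and Gclm -0.02 with the offset and -0.01 with block and offset. The cause was not tested. Precision is limited by 3 libraries a group, and for Gpx3 by read number.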
